A study of Homo sapiens with 6 samples.

Results

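The keratin genes examined here are KRT7, KRT8, KRT18 and KRT19, which are typical of simple epithelia, and KRT5, which is typical of basal cells. They were followed in Calu-3, a cell line grown from a human lung adenocarcinoma and much used as a model of airway gland epithelium. The members are all called intervals that overlap 4 fixed windows of the hg19 genome. On chromosome 12 these are 52600001 to 52670000 for KRT7, 53270001 to 53370000 for the neighbours KRT8 and KRT18, and 52880001 to 52940000 for KRT5. On chromosome 17 the window is 39660001 to 39700000 for KRT19. The windows held 42 of the 73341 intervals in the deposited lists, and all 42 lay in the 3 simple-keratin windows. The KRT5 window held 0.

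The intervals come from chromatin immunoprecipitation followed by sequencing (ChIP-seq). The groups used are EHF, with 2 replicates, and H3K4me1 and H3K27ac, with 1 library each. All were made from Calu-3 cells grown in low-glucose DMEM with serum, with no treatment or genotype given in the labels, and 1 line is the only source of cells. Of the 2 input libraries, per the labels, one served the calling of both EHF lists and the other that of both histone marks.

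Keratins are the intermediate filament proteins of epithelia, and each filament needs a type I keratin paired with a type II keratin. KRT7 and KRT8 are type II keratins, and KRT18 and KRT19 are type I keratins that can pair with them. KRT8 with KRT18 is the usual pair of simple epithelia, KRT7 is frequent in ducts and glands and is used as a marker of lung adenocarcinoma, and KRT19 is a small simple-epithelium keratin. KRT5 is the type II keratin of the basal cells of stratified and airway epithelium, where KRT14 is its partner. EHF belongs to the ETS transcription factors and is made mainly in epithelia. Monomethylation of lysine 4 of histone H3 is typical of enhancers, and acetylation of lysine 27 is typical of promoters and enhancers in use.

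Depth was 10176290 and 8418631 tags in EHF replicates 1 and 2, 12989646 in H3K4me1 and 21426939 in H3K27ac, and 0.155% to 28.9% of the tags lay in called intervals. The lists held 1537, 5216, 31950 and 34638 intervals in the same order. The score quoted below is the authors' normalized tag count of an interval, scaled to 10000000 tags per library. It is scaled by the library total only and carries no error, and it is used here to describe and rank intervals within a list. It is not corrected for DNA copy number at the interval. Each mark has 1 library and there is 1 condition, so the comparison of simple keratins with KRT5 could not be tested over samples and is given as a description. An interval that is missing from a list did not pass the calling rules, which is not the same as having no tags.

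The H3K27ac and H3K4me1 regions separated the simple-keratin windows from the KRT5 window. H3K27ac regions covered 40.0% of the 210 kb of the simple-keratin windows and 0% of the 60 kb of the KRT5 window, against 2.10% of all chromosomes. By window, H3K27ac covered 45.8% at KRT7, 33.5% at KRT8 and KRT18 and 45.9% at KRT19. H3K4me1 regions covered 6.32% of the simple-keratin windows and 0% of the KRT5 window, against 0.764% of all chromosomes. For H3K4me1 the windows were less alike, with 7.83% at KRT7, 1.50% at KRT8 and KRT18 and 15.7% at KRT19. The KRT8 and KRT18 window was therefore the lowest of the 3 in both marks.

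**Figure D1:**
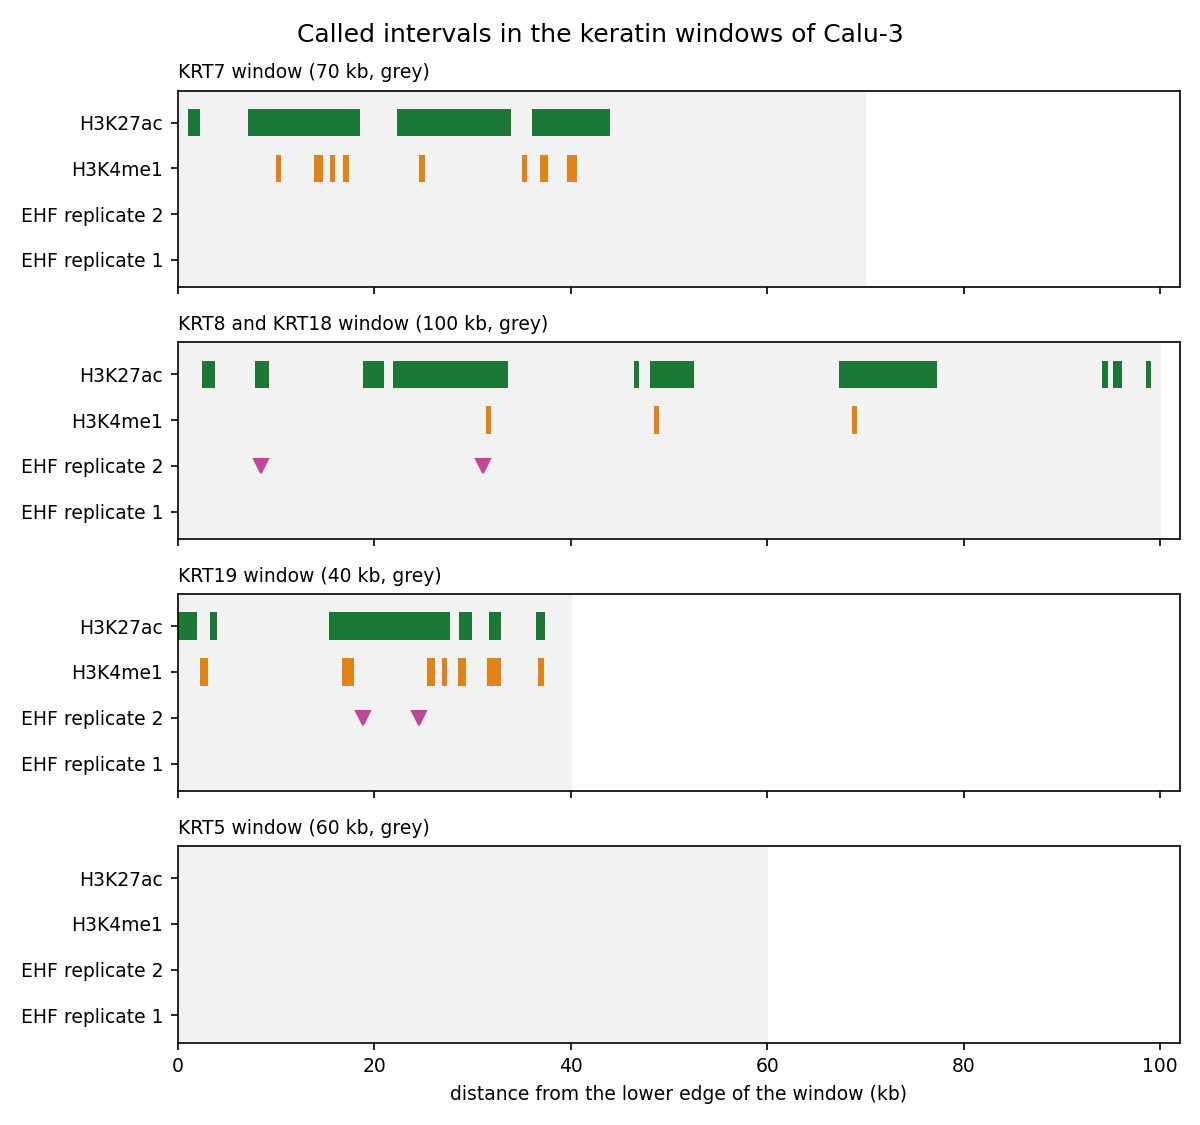
Called intervals in the 4 windows, by distance in kb from the lower edge of each window (x axis), with 1 row per list; bars are mark regions drawn to scale, triangles are EHF peaks, and grey is the extent of the window. The 3 simple-keratin windows hold 20 H3K27ac regions, 18 H3K4me1 regions and 4 EHF peaks of replicate 2, and the KRT5 window holds none.

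The windows start and end on a grid of 10 kb, which allowed the same count over all chromosomes. H3K27ac touched 18 of the 21 simple-keratin bins and 0 of the 6 KRT5 bins, where the share over all 309038 bins was 11.0%. H3K4me1 touched 12 of the 21 simple-keratin bins and 0 of the 6 KRT5 bins, against 8.47% of all bins. EHF replicate 2 touched 4 of the 21 and 0 of the 6, against 1.61% of all bins. EHF replicate 1 touched 0 of the 21 and 0 of the 6, against 0.497%. In 6 of the 21 simple-keratin bins H3K27ac covered at least 50% of the bases, which held for 0.714% of all bins. In percent, the H3K27ac share of the simple-keratin bins was 85.7%, with an exact 95% binomial interval of 63.7% to 97.0%, and that of H3K4me1 was 57.1%, with 34.0% to 78.2%. Neighbouring bins can share a region, and the intervals cover counting error only. An empty bin is the usual state for every list, so the 6 empty bins of KRT5 are not unusual. The shares of the simple-keratin bins lay above the background in both marks and in EHF replicate 2. This is a description and no test, because the windows were chosen with earlier results of these data known. EHF replicate 2 touched 0 of 7 bins at KRT7, 2 of 10 at KRT8 and KRT18 and 2 of 4 at KRT19. Its pooled 95% interval was 5.45% to 41.9%. For EHF replicate 1 the interval was 0% to 16.1%. It holds the background of 0.497%, at which 21 bins would mostly be empty, so its 0 decides nothing.

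**Figure D2:**
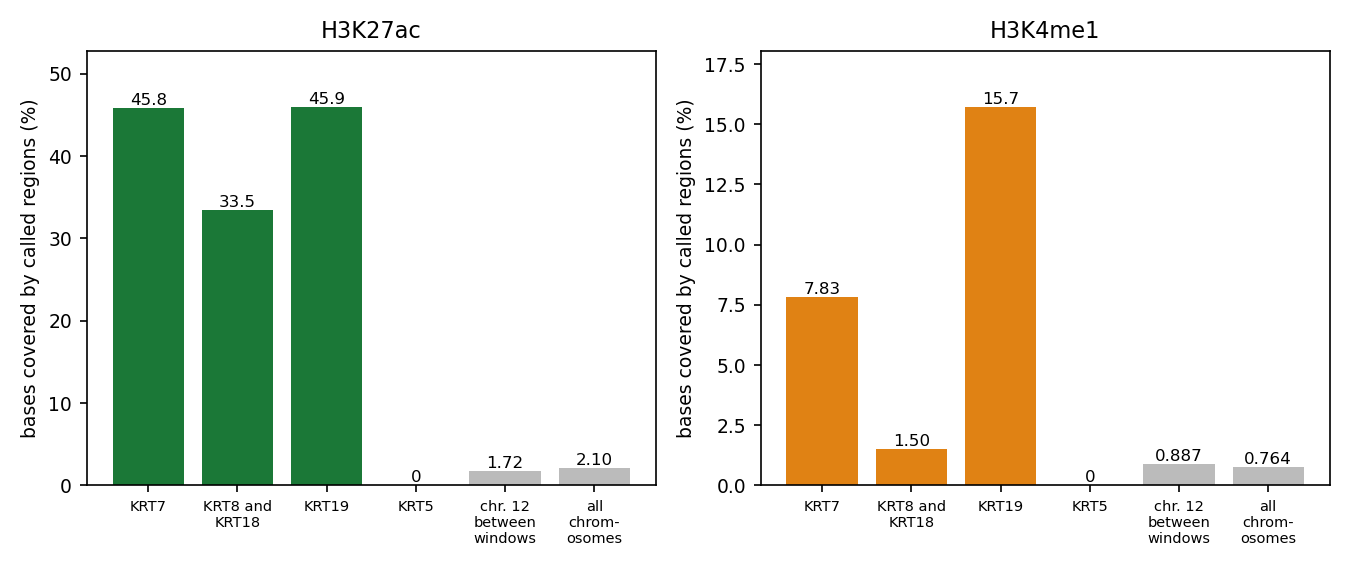
Bases covered by called regions, in percent (y axis, from 0), for H3K27ac (left) and H3K4me1 (right) in the 3 simple-keratin windows, the KRT5 window, the chromosome 12 stretches between the windows and all chromosomes; each bar is 1 library, with no error. The simple-keratin windows reach 33.5% to 45.9% for H3K27ac and 1.50% to 15.7% for H3K4me1, and KRT5 is at 0 in both.

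KRT7 had the widest typical H3K27ac regions of the windows, with a median of 9636 bp, against 1370 bp in the whole list. Its 4 regions ran from 52601042 to 52602248 (score 24), 52607205 to 52618587 (score 522), 52622319 to 52633928 (score 761) and 52636092 to 52643980 (score 219). The last 3 of these held 98.4% of the H3K27ac score of the window. The upper part of the window was empty, and its longest stretch without any interval was 26.0 kb. The region with the score of 761 was 11610 bp wide, which 0.598% of the list reached, and its score of 65.5 per kb was reached by 6.02%. The region with the score of 219 was 7889 bp wide but had 27.8 per kb, close to the median of 27.9 of the whole list.

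KRT7 also had 8 H3K4me1 regions, the highest number of the windows, which differ in length. Per 100 kb it had 11.4, below the 17.5 of KRT19. The one with the highest score, 27, ran from 52639655 to 52640699. The others ran from 52609979 to 52610479 (score 10), 52613923 to 52614779 (20), 52615493 to 52615993 (10), 52616801 to 52617426 (12), 52624525 to 52625197 (13), 52635009 to 52635509 (9) and 52636911 to 52637684 (19). Of the 8, 7 lay in an H3K27ac region, 4 of them in the first of the wide regions, and the one with the score of 9 lay 582 bp outside. Their median of 20.0 per kb was below the 23.2 of the whole list. No EHF peak was called in the KRT7 window, and the nearest one, in replicate 2, was 608 kb away, in the KRT8 and KRT18 window.

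The window of KRT8 and KRT18 had 10 H3K27ac regions, and 3 of them carried 89.0% of its score. These ran from 53291939 to 53303631 (11693 bp, score 667), from 53318103 to 53322527 (4425 bp, score 426) and from 53337281 to 53347325 (10045 bp, score 561). The region of 4425 bp had the densest signal of the window, at 96.3 per kb, a density that 1.33% of the list reached. The wider regions on either side of it had 57.0 and 55.8 per kb. The other 7 regions were 501 to 2138 bp wide with scores of 9 to 57, against list medians of 1370 bp and 38. They ran from 53272475 to 53273796 (score 24), 53277918 to 53279255 (57), 53288823 to 53290960 (55), 53316456 to 53316956 (9), 53364038 to 53364668 (14), 53365219 to 53366112 (37) and 53368568 to 53369068 (9). The reference table lists KRT8 and KRT18 next to each other, and which of the 3 strong regions belongs to which gene was not analysed here, because no hg19 annotation was used.

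H3K4me1 at KRT8 and KRT18 was limited to 3 regions, at 53301347 to 53301847, 53318467 to 53318967 and 53338626 to 53339126. Each had a score of 10, which 92.0% of the list reached or passed, and each was 501 bp wide, the narrowest width in the list and that of 53.3% of its regions. Each of the 3 lay in a different one of the 3 strong H3K27ac regions. Together they covered 1503 bp, against 33488 bp of H3K27ac.

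EHF replicate 2 had 2 peaks at KRT8 and KRT18, both inside H3K27ac regions. The peak at 53278435 to 53278559 had a score of 12 and lay in the region with the score of 57, 0.580 kb from its lower and 0.758 kb from its upper edge. The peak at 53301049 to 53301173 had a score of 11 and lay in the region of 11693 bp, 2.52 kb from its upper edge and 173 bp from the nearest H3K4me1 region. Both scores were ordinary for the list, whose median was 12. Replicate 1 had no peak here, and its nearest peak was 1393 kb from the window. Of all replicate 2 peaks, 14.7% were found in replicate 1, and the share was 9.97% at a score of exactly 12 and 8.66% at a score of exactly 11.

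KRT19 had the highest H3K27ac score of the windows. Its widest region, from 39675413 to 39687769, was 12357 bp wide with a score of 1742, rank 47 in a list of 34638. At 141 per kb it ranked 12 by density among the 302 H3K27ac regions of at least 10 kb, where the 4 such regions at KRT7 and at KRT8 and KRT18 ranked from 153 to 256. These ranks compare places on different chromosomes, with no correction for DNA copy number. The other 5 H3K27ac regions were small, at 39660046 to 39661968 (score 47), 39663330 to 39663992 (16), 39688622 to 39689922 (27), 39691671 to 39692883 (36) and 39696478 to 39697364 (47). The wide region alone made up 91.0% of the H3K27ac score of the window.

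KRT19 also had the densest H3K4me1. Its 7 regions ran from 39662275 to 39663119 (score 31), 39676745 to 39677971 (45), 39685349 to 39686186 (29), 39686895 to 39687395 (20), 39688525 to 39689345 (17), 39691498 to 39692909 (39) and 39696653 to 39697306 (25). Their median was 36.7 per kb, against 23.2 in the whole list. Of the 7, 3 lay in the wide H3K27ac region and 3 overlapped the small regions above it, and the first lay 210 bp from the nearest H3K27ac region.

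The EHF peaks of KRT19 lay in the wide H3K27ac region, and 1 of them was among the strong ones of its list. In replicate 2 the peak at 39678767 to 39678891 had a score of 33, which 2.26% of the list reached. The second, at 39684471 to 39684595, had a score of 12, the median of the list. Both were inside the region, 3.42 and 9.12 kb from its lower edge. The H3K4me1 regions stood outside the pair, 795 bp below the stronger peak and 753 bp above the other, so that the stretch between the peaks had H3K27ac but no H3K4me1. Replicate 1 had no peak in the window, and the nearest was 387 kb away. Of the 118 peaks of replicate 2 that scored at least 33, replicate 1 had 63, or 53.4%. Of the 17 that scored exactly 33, replicate 1 had 7, or 41.2%.

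The surroundings of KRT19 on chromosome 17 held intervals of far higher score. From 37500001 to 39000000, ending 660 kb below the KRT19 window, the median H3K27ac score per kb of each 0.5 Mb bin was at least 5 times the 30.3 of the chromosome, and 1362 in the highest. The next bin, 39000001 to 39500000, had 75.9, the bin that holds KRT19 had 41.2, and the one after it had 45.7. The H3K4me1 medians of the same bins were 695 in the highest, then 37.9, 31.7 in the bin of KRT19 and 24.0 in the one after it, against 23.7 on the chromosome. Both medians of the KRT19 bin include the regions of the window itself. Further out, H3K27ac bins from 34500001 to 37500000 had medians of 50.3 to 127. Those from 40500001 to 50000000 had 27.1 to 66.4, and all but the lowest were above the 30.3 of the chromosome. Of the 56 H3K27ac regions from 39000001 to 40500000, 5 had a higher score per kb than the wide KRT19 region. EHF replicate 2 had 24 peaks in that stretch with a median score of 13, and the highest had 51. Without the block from 37500001 to 39000000, 94 peaks of replicate 2 scored at least 33, and replicate 1 had 63 of them, or 67.0%. With the block there were 118 such peaks and the same 63 found, so replicate 1 had none of those inside the block. These boundaries were drawn after the values were seen. Their part in the KRT19 scores was not tested.

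**Figure D3:**
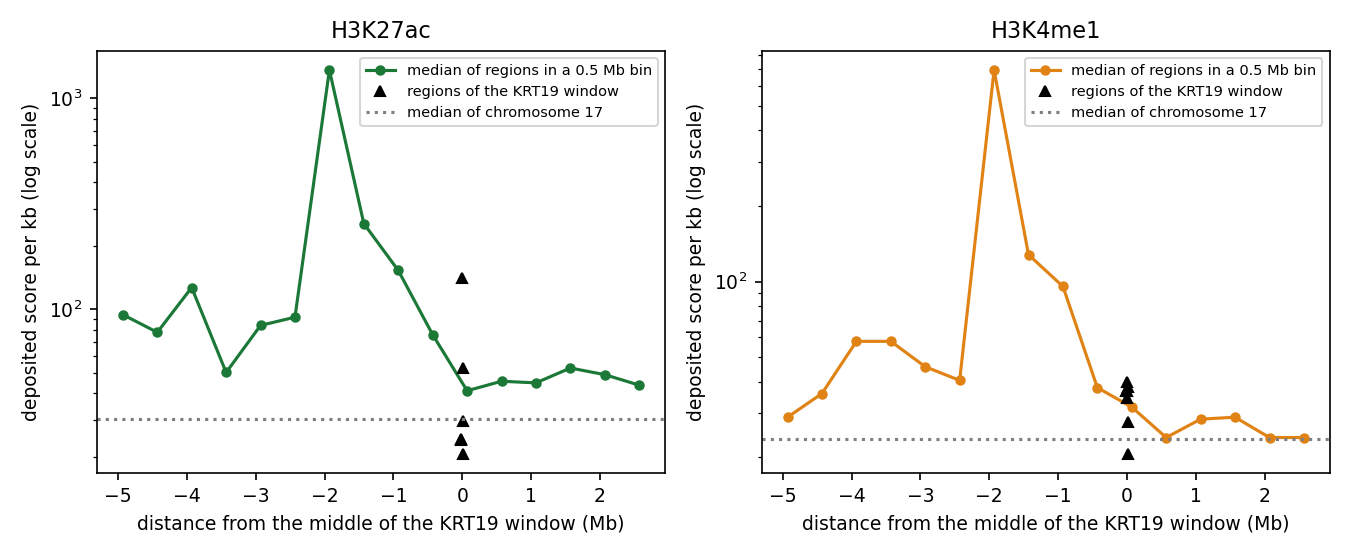
Deposited score per kb (log scale) of H3K27ac (left) and H3K4me1 (right) regions by distance in Mb from the middle of the KRT19 window; lines join the medians of 0.5 Mb bins, triangles are the regions of the KRT19 window, and the dotted line is the median of chromosome 17. The bin of KRT19 has an H3K27ac median of 41.2, the highest bin has 1362, and the widest KRT19 region has 141.

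KRT5 had no interval in any list. The nearest H3K27ac region was 140 kb and the nearest H3K4me1 region 141 kb from the window. The nearest EHF peak was 338 kb away in replicate 2, at KRT8 and KRT18, and 1823 kb away in replicate 1. The stretch without any interval around KRT5 ran from 52740225 to 53192523, or 452 kb, and reached 140 kb below and 253 kb above the window. Such emptiness is common, since 35.3% of the bases of all chromosomes lay in empty stretches at least as long.

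Taken as a whole, the chromosome 12 stretches between the windows were near the background of all chromosomes in both marks. They include the 140 kb below and the 253 kb above KRT5 that held no interval. All their regions lay nearer to the KRT7 window or to the KRT8 and KRT18 window than to that of KRT5. In the reference table (GRCh38.p14, used for gene order only), 10 coding genes stand between KRT7 and KRT5 and 12 between KRT5 and KRT8, and all 22 are keratins. They include KRT6A, next to KRT5 and known from stressed and stratified epithelium, KRT1 and KRT2 of the differentiated epidermis, KRT4 of stratified mucosa and KRT81 and KRT86 of hair. Which of them lie in the empty stretch was not analysed, because no hg19 annotation was used. The 540 kb between the 3 windows had 5 H3K27ac regions, which covered 1.72%, and 5 H3K4me1 regions, which covered 0.887%. Over all chromosomes the shares were 2.10% and 0.764%. Neither EHF list had a peak there. H3K27ac touched 5 of its 54 bins, or 9.26%, close to the 11.0% of all bins. The strongest of these regions, from 52671402 to 52675986 with a score of 286, lay just above the KRT7 window.

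**Figure D4:**
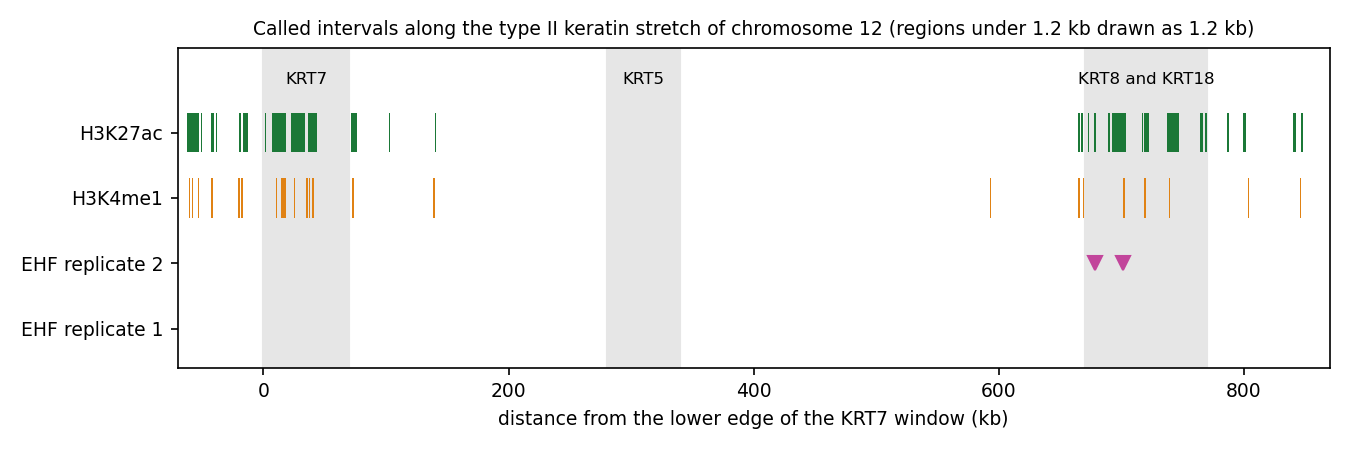
Called intervals along chromosome 12 by distance in kb from the lower edge of the KRT7 window (x axis), 1 row per list, with the KRT7, KRT5 and KRT8 and KRT18 windows in grey; regions under 1.2 kb are drawn as 1.2 kb and triangles are EHF peaks. Intervals crowd at KRT7 and at KRT8 and KRT18, with 452 kb free of all lists around KRT5.

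The marks did not stop at the edges of the simple-keratin windows in every case. The 70 kb below the KRT7 window had 26.9% of its bases in H3K27ac, led by a region from 52537270 to 52547248 with a score of 739, and 5.89% in H3K4me1. The 70 kb above it had 7.84%. The 100 kb stretches below and above KRT8 and KRT18 had 3.60% and 9.18% in H3K27ac, and the 40 kb stretches below and above KRT19 had 3.14% and 14.6%. The stretch above KRT19 held a region from 39700222 to 39706046 with a score of 750 and 1 EHF peak of replicate 2 with a score of 11. The stretch below KRT19 also held 1 EHF peak of replicate 2, from 39653214 to 39653338, with a score of 17 and inside an H3K27ac region. The 60 kb on either side of KRT5 had 0%. Each simple-keratin window was thus above both of its flanks in H3K27ac, and all 6 of these flanks were above the 2.10% of all chromosomes. This did not hold for H3K4me1, which covered 2.60% of the stretch below KRT8 and KRT18 against 1.50% of that window. Every other flank of a simple-keratin window was below its window in H3K4me1.

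The reference promoter table held 2 of the 5 genes, KRT8 and KRT5, and these are shown because the others were missing from it. The KRT8 and KRT18 window has EHF peaks and the KRT5 window has none. The sequences are the 250 bases before the start in RefSeq, build GRCh38.p14, minus strand, 5′ to 3′, at chr12:52926470-52926719 for KRT8 and chr12:52520395-52520644 for KRT5. That build differs from the hg19 of the intervals, so whether a called interval covers them was not analysed here. Whether the start used is the main one of each gene was not analysed either. Capitals mark the letters GGAA, the core of the ETS motif, or TTCC, the same core on the other strand.
KRT8: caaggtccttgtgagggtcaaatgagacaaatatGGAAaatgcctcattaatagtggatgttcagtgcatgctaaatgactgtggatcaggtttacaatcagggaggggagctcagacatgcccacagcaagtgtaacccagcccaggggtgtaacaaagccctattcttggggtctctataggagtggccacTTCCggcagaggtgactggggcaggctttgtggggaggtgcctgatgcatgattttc
KRT5: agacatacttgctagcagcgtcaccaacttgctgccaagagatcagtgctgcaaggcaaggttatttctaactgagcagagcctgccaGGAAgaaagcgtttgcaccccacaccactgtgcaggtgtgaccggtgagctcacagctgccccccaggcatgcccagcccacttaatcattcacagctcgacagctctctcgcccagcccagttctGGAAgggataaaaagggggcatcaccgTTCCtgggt

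On both strands KRT8 had 2 matches of GGAA and KRT5 had 3, and 92.7% of the 35116 promoters of this length in the table hold at least 1. The longer GGAAG matched 1 time at KRT8 and 2 times at KRT5, and 65.1% of promoters hold it. Positions are counted backwards from the start used. The match beginning at -57 of KRT8 extended to CCGGAAGT on the other strand, a form of the ETS site that 3.42% of promoters hold. KRT5 had 0 such matches. This longer form was looked for after the sequences were seen, and a match is a description and no evidence of binding.

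The overlap of the 2 marks differed between the simple-keratin windows. Of the 18 H3K4me1 regions, 16 overlapped an H3K27ac region, against 45.2% of the whole H3K4me1 list. By bases, 87.6% of the H3K4me1 in these windows lay in H3K27ac. Of the 20 H3K27ac regions, 10 overlapped an H3K4me1 region, against 34.5% of that list. These were 3 of 4 at KRT7, 3 of 10 at KRT8 and KRT18 and 4 of 6 at KRT19, so the share at KRT8 and KRT18 was near that of the list. All 4 EHF peaks lay in H3K27ac, where 63.8% of replicate 2 peaks did, and 0 of the 4 overlapped H3K4me1, where 7.98% of replicate 2 peaks did. Of the 4, 3 had an H3K4me1 region within 1000 bp, against 33.5% of replicate 2 peaks. Since wide H3K27ac regions have more room to meet another interval, and 5 of the 20 were at least 10 kb wide against 0.872% of the list, these shares were not tested.

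**Figure D5:**
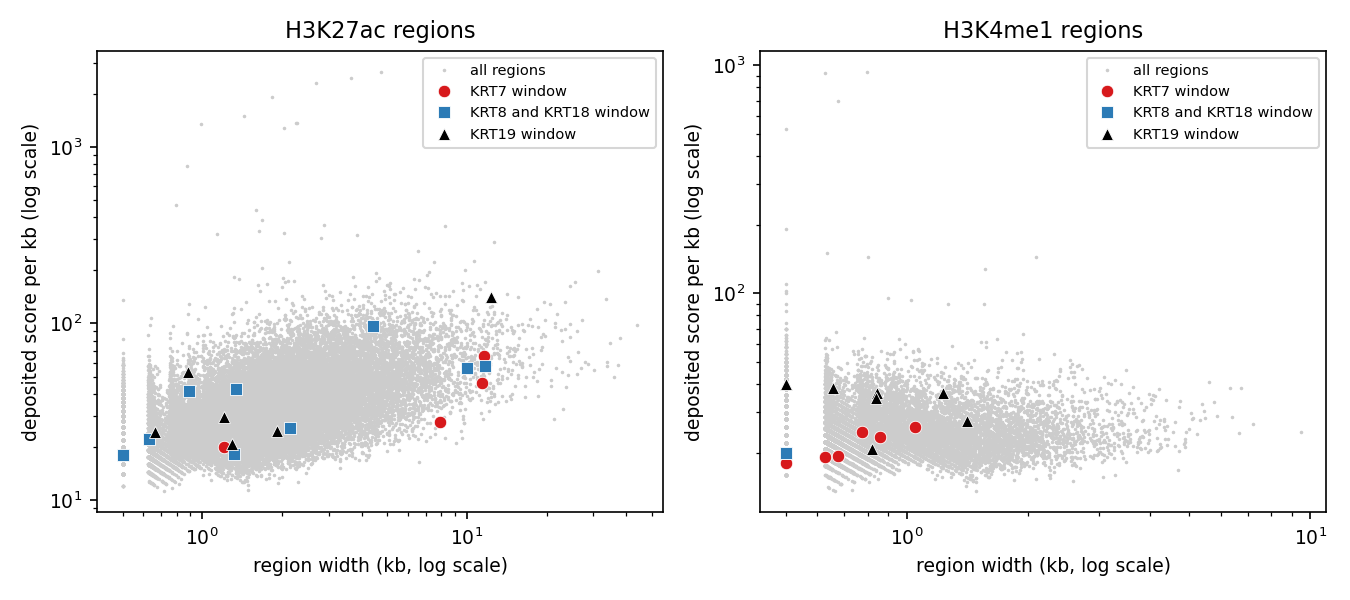
Region width in kb (x axis, log scale) against deposited score per kb (y axis, log scale) for H3K27ac (left) and H3K4me1 (right); grey points are all regions of the list and coloured symbols are the regions of the 3 simple-keratin windows. H3K27ac holds 5 member regions of at least 10 kb, of which the KRT19 region is the densest at 141 per kb.

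By window, the median H3K27ac density was 36.8 per kb at KRT7, 33.6 at KRT8 and KRT18 and 27.1 at KRT19, against 27.9 in the whole list. In the whole list, regions of at least 10 kb had a median of 65.9 per kb and quartiles of 51.7 and 90.7. The 4 such regions at KRT7 and at KRT8 and KRT18 had 45.9, 65.5, 57.0 and 55.8 per kb, all below that median, and the one at KRT19 had 141, above the upper quartile. Summed over each window, the H3K27ac score came to 21.8 per kb of window at KRT7, 18.6 at KRT8 and KRT18 and 47.9 at KRT19, and to 0 at KRT5, against 0.937 per kb over all chromosomes. The H3K4me1 score came to 1.71, 0.300 and 5.15 in the same windows and to 0 at KRT5, against 0.188. KRT19 was the highest in both marks, in scores that are not corrected for DNA copy number.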

How the data were processed

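The data are 4 interval lists from Calu-3: 2 of EHF, 1 of H3K4me1 and 1 of H3K27ac. The submitters' processing notes name hg19, Bowtie (1.0.0) and HOMER (1.2). HOMER's findPeaks made every list from its own library, per the file headers, with the factor setting on EHF and the histone setting on both marks, at a false discovery rate of 0.01. The headers of all 4 lists require 4-fold over input and over the surrounding 10000 bp, and give 0 mark regions as removed by the local rule. The deposited score is, per the file headers, the normalized tag count, scaled by the authors to 10000000 tags.

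The windows, genes and lists were chosen with earlier results of these data known. Overlap meant at least 1 bp. Coverage, ranks, gaps and 10 kb bins, counted up to the furthest interval end on each chromosome, were computed in Python (3.11.15) using pandas (2.3.3), numpy (2.4.6) and scipy (1.17.1), and checked on simulated intervals. No test over samples was possible. All intervals of a window were named where a list had at most 10 there. Separate cultures for the 2 EHF libraries are not stated, so their spread may be technical.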

Additional observations from a re-analysis of the deposited data

How the results depend on the processing

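The KRT5 window stayed at 0 in all 24 alternative values. None of these settings could change it, because the nearest interval was 140 kb away and window edges moved by 10 kb only. Of the 24 for the simple-keratin windows, 4 moved by more than 1.5 times or beyond the 95% binomial interval taken over kb of window (33.3% to 47.0% for H3K27ac), which covers counting error only. Neighbouring kb share regions and are not independent, so that interval is too narrow. H3K27ac coverage became 47.0%, at its rounded upper limit, with windows shortened by 10 kb at both ends. With scores of at least the list median, 11 of the 20 H3K27ac and 10 of the 18 H3K4me1 regions were left. The count of 4 EHF peaks ranged from 0 without replicate 2 to 4 without replicate 1, so it rests on replicate 2, and it was 6 with windows lengthened by 10 kb. The background of touched bins became 0.752%, 2.43%, 12.8% and 16.6% for EHF replicates 1 and 2, H3K4me1 and H3K27ac when limited to bins within 100 kb of an interval. By interval centre it was 8.01% for H3K4me1 and 9.58% for H3K27ac. In EHF replicate 1 only 0.155% of tags lay in peaks, which limits what its empty windows show. No paired analysis was possible because EHF alone has replicates, and they are 2 libraries of 1 condition.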
